A study of Homo sapiens with 6 samples.

Results

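The genes described here are 10 chemokine genes of BT-549 cells, chosen by symbol from a fixed list: CXCL1, CXCL2, CXCL3, CXCL8, CXCL10, CXCL11, CXCL16, CCL2, CCL5 and CX3CL1. All 10 were found among the 37887 rows of the count table. BT-549 is an established human triple-negative breast cancer line with a mesenchymal character. The series holds 3 libraries labeled control shRNA and treated with the vehicle DMSO (0.1%), and 3 libraries labeled shPBRM1 and treated with doxycycline (500 ng/ml), which switches on an shRNA against PBRM1, the chromatin-targeting subunit of the PBAF remodeling complex. The series design describes cells of both groups as stably carrying a tet-PBRM1 shRNA vector, whereas the titles name a control shRNA, so an effect of doxycycline and an effect of PBRM1 silencing cannot be told apart. The count columns of the control group carry no group name and were assigned as the group other than shPBRM1. All values come from a single cell line, and p-values measure only the spread between these libraries, because the labels do not say whether the triplicate cultures were separate experiments.

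Chemokines are small secreted proteins that guide leukocytes along a gradient through G protein-coupled receptors, and the CXC and CC families are named for the spacing of conserved cysteines. CXCL10 and CXCL11 are classic interferon-induced ligands of CXCR3 on activated T cells and NK cells, and CCL5, which attracts T cells and monocytes, is also raised by interferon regulatory factors. CXCL1, CXCL2, CXCL3 and CXCL8 are neutrophil attractants that act through CXCR2, CXCL8 also through CXCR1, and are textbook targets of NF-kB, as is CCL2, which recruits monocytes through CCR2. CXCL16 and CX3CL1 are made as transmembrane proteins that can be shed from the cell surface, and they bind CXCR6 and CX3CR1.

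Promoter sequences were read from the RefSeq promoter table (GRCh38.p14, 250 bases before to 50 bases after the gene start), which held 6 of the 10 genes. CCL2, CCL5, CXCL16 and CX3CL1 had no entry. The 5 promoters below are shown because they belong to the gene with the largest decrease (CXCL10), its neighbor CXCL11, and 3 genes of the NF-kB type that differed in direction or size. They are written 5′ to 3′ on the strand of the gene, with capitals marking the letters GGAATTTCC or their reverse complement GGAAATTCC, a match to the kappa-B element, and the core of the interferon-stimulated response element (ISRE), a pair of GAAA repeats with any 2 bases between them.
CXCL10, chr4:76023448-76023747, minus strand: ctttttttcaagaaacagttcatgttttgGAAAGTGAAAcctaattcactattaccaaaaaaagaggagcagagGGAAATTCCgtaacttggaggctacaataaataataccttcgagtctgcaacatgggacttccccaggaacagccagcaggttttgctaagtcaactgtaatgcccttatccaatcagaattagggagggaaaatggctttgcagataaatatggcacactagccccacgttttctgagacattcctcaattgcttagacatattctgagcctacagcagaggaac
CXCL11, chr4:76036021-76036320, minus strand: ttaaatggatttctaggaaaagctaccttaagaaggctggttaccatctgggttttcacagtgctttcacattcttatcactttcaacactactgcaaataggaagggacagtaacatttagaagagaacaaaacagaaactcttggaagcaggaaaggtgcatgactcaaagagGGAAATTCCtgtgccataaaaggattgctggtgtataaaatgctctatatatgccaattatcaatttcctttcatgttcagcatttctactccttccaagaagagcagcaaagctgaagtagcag
CXCL1, chr4:73869143-73869442, plus strand: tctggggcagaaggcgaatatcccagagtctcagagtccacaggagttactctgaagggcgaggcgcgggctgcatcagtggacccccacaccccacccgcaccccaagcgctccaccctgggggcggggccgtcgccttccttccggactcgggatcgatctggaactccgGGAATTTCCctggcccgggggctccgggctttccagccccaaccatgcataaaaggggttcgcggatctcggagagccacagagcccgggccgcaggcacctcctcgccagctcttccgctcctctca
CXCL3, chr4:74038640-74038939, minus strand: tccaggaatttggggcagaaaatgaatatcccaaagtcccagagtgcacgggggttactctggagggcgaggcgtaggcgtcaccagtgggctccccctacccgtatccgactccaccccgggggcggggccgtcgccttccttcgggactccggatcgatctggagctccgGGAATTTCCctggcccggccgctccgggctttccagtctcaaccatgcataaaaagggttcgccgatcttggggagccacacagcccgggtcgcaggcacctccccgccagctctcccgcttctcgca
CXCL8, chr4:73740319-73740618, plus strand: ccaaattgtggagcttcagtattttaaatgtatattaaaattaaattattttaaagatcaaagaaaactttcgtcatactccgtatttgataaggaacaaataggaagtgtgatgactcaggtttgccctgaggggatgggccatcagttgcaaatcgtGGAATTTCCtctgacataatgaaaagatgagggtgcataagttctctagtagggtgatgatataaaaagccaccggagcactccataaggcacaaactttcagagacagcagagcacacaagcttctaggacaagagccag

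The kappa-B letters were present in all 6 promoters of the table, the CXCL2 promoter included. Among 35116 promoters of 300 bases, 0.461% held them on either strand. The letters were chosen with these sequences in view, so this share describes how rare the string is and tests nothing. The match began 78 bases upstream of the start in CXCL1 and CXCL3, 77 bases upstream in CXCL2, 91 in CXCL8, 75 in CXCL11 and 176 in CXCL10. These starts are those of RefSeq. The whole CXCL11 window lies inside the gene span of the GENCODE v29 annotation used below (76033682 to 76041415). The ISRE core was found in the CXCL10 promoter alone of the 6, beginning 221 bases upstream, and in 3.57% of all promoters. The palindrome TTCNNNGAA, the core of the gamma-activated sequence, was found in the CXCL11 promoter and in 7.66% of all promoters, and the AP-1 letters TGACTCA were found in CXCL8 and CXCL11 and in 4.95% of all promoters, on either strand. The promoters of CXCL1 and CXCL3 were 82.5% identical in a global alignment and those of CXCL1 and CXCL2 69.7%. CXCL1 rose while CXCL2 and CXCL3 fell, as described below. Whether promoter sequence bears on the direction of change was not tested. A match to letters is not a binding site.

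The silenced gene was checked first. PBRM1 fell from 157, 157 and 161 CPM in control libraries 1, 2 and 3 to 43.3, 40.9 and 41.7 CPM in shPBRM1 libraries 1, 2 and 3 (CPM, read counts scaled to TMM-normalized library size). This is a log2 fold change of -1.91 (SE 0.027, edgeR adjusted p = 1.00e-22). Total counts lay between 36429395 and 65096297 per library, and 3 counts, taken as the floor of detection, equal between 0.0470 and 0.0803 CPM. VIM and CDH2, mesenchymal genes, stood at 620 ± 15.9 and 252 ± 7.04 CPM (SD, n = 3) in control cells and were higher in shPBRM1 cells, whereas FN1, also mesenchymal, went from 554 to 221 CPM. ESR1, the estrogen receptor gene, had no more than 2 counts in any library, whereas ERBB2 was present at 51.2 ± 1.10 CPM.

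The 10 genes ranged from CXCL10, with 0.807% of its control level left in shPBRM1 cells, to CXCL1, which was 1.21-fold higher. A gene was called where it changed more than 2-fold with an adjusted p below 0.05. By that rule, 6 of the 10 genes were called lower in shPBRM1 cells: CXCL10, CXCL11, CCL5, CCL2, CXCL16 and CX3CL1. None was called higher in edgeR or in DESeq2. CXCL1 was higher at an edgeR adjusted p under 0.05 but by less than 2-fold. By the rule with both thresholds, 9.68% of all 15450 genes tested were called lower and 2.87% were called higher. Without the fold change minimum, 9 of the 10 were lower and 1, CXCL1, was higher, against 33.2% and 31.5% of all genes. Values of the groups did not overlap for any of the 10 genes, as was the case for 68.3% of all genes, so a lack of overlap is common in these libraries. The median log2 fold change was -4.29 for the 3 interferon-type genes, -0.49 for the 5 NF-kB-type genes and -2.52 for the transmembrane pair, beside -0.0080 for all genes tested. In bulk RNA, fewer cells that express a gene and less RNA per cell cannot be told apart.

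**Figure D1:**
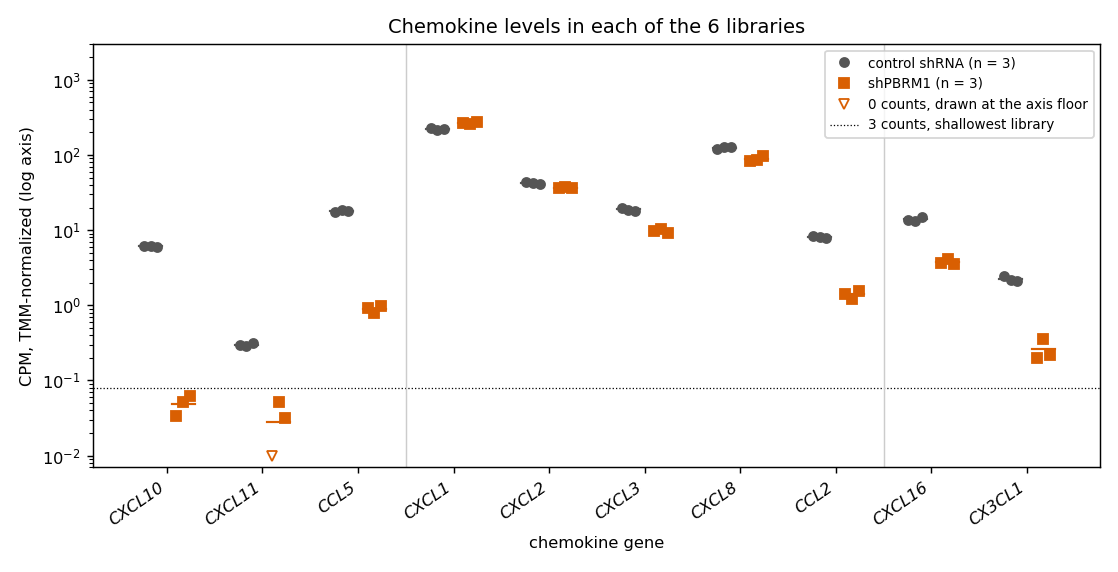
Levels of the 10 chemokine genes in each library, in TMM-normalized CPM on a log axis; points are libraries (gray circles, 3 control shRNA; orange squares, 3 shPBRM1), short bars are group means, the triangle marks a library with 0 counts and the dotted line marks 3 counts in the shallowest library. CXCL10 dropped from about 6 CPM to below the dotted line in all 3 shPBRM1 libraries, while CXCL1 stayed above 200 CPM in all 6 libraries.

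CXCL10, on chromosome 4 from 76021117 to 76023497 (minus strand, GENCODE v29 annotation of GRCh38), showed the largest change of the 10. Its level was 6.19, 6.13 and 5.95 CPM in control libraries 1, 2 and 3 and 0.0333, 0.0514 and 0.0627 CPM in shPBRM1 libraries 1, 2 and 3. The shPBRM1 values rest on 2, 2 and 4 counts, against 231, 298 and 300 counts in the control libraries. All shPBRM1 libraries were thus at or next to the floor of detection, and the mean was 0.807% of that in control cells. The log2 fold change was -6.88 (SE 0.15, edgeR adjusted p = 4.63e-17). This SE comes from replicate log2 CPM values with a prior count of 2, so it understates the error at so few counts. The ratio of the summed counts was 124-fold, with an exact (Clopper-Pearson) 95% interval of 62.4 to 287 that covers counting error only. Rows with 2 counts outnumbered rows with 1 count in every library, between 1553 and 1710 rows against 919 to 982, so single counts are not independent units. With counts divided by 2 the interval was 47.9 to 455. The gene overlaps ART3 on the opposite strand, which had no more than 3 counts in any library.

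CXCL11, the next chemokine gene on the same strand (76033682 to 76041415), was expressed at a low level in control cells and was near the limit of detection after silencing. Its levels were 0.295, 0.288 and 0.317 CPM in the control libraries (11, 14 and 16 counts) and 0, 0.0514 and 0.0314 CPM in the shPBRM1 libraries (0, 2 and 2 counts). The groups did not overlap. The log2 fold change was -3.47 (SE 0.36, edgeR adjusted p = 1.63e-04), and the counted ratio of 12.2-fold had a 95% interval of 4.43 to 47.0. On counts divided by 2 the interval widened to 2.90 to 105. The log2 fold change was -2.85 without shPBRM1 replicate 1, the library at 0. With so few counts, the size of the decrease is known far less well than for CXCL10. CXCL9, the remaining CXCR3 ligand, had 4 counts in a single control library and 0 in the other 5 libraries, so a change was not detectable at this depth.

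CCL5, on chromosome 17 from 35871491 to 35880793 (minus strand), was the most abundant interferon-type gene. It was present at 17.4, 18.4 and 17.9 CPM in the control libraries and at 0.932, 0.796 and 0.972 CPM in the shPBRM1 libraries. All shPBRM1 libraries lay well above the floor of detection, with 56, 31 and 62 counts, so that residual expression of 5.03% of the control level was measured. The log2 fold change was -4.29 (SE 0.087, edgeR adjusted p = 7.19e-20). CCL5 overlaps the opposite-strand gene AC015849.1 in the annotation, and whether reads were counted by strand is not given in the sources used here.

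Markers of leukocytes were examined beside these decreases, since leukocytes make the same ligands. The T cell markers CD3D, CD3E and CD2, the B cell marker MS4A1 and the red cell markers HBA1 and HBB had 0 counts in every library. PTPRC, a gene of leukocytes in general, had 26, 40 and 44 counts in the control libraries and 12, 4 and 6 in the shPBRM1 libraries, or 0.797 ± 0.0906 and 0.132 ± 0.0587 CPM (SD, n = 3). It thus fell together with the interferon-type genes (log2 fold change -2.55, SE 0.28, edgeR adjusted p = 6.35e-06). The 4 monocyte and macrophage markers summed to 2.38 to 3.40 CPM in control and 1.32 to 1.62 CPM in shPBRM1 libraries, with CD163 lower, CD14 higher, CSF1R not passing the test and ITGAM not tested. The part of these transcripts in the chemokine decreases was not tested.

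Of the NF-kB-type genes, CXCL1, CXCL2, CXCL3 and CXCL8 changed less than 2-fold, and not in a single direction. CCL2, described below, fell 5.88-fold. CXCL1, on chromosome 4 from 73869393 to 73871242, was the most abundant of the 10 and rose. Its level was 226, 215 and 219 CPM in the control libraries and 265, 262 and 273 CPM in the shPBRM1 libraries. Every shPBRM1 library exceeded every control library, and the mean was 1.21-fold higher, with a log2 fold change of 0.28 (SE 0.027, edgeR adjusted p = 7.37e-07). CXCL2 (74097035 to 74099293) went slightly the other way, from 43.3, 41.9 and 41.0 CPM to 36.3, 37.5 and 35.9 CPM. Its log2 fold change was -0.20 (SE 0.029, edgeR adjusted p = 7.90e-04), which leaves 87.0% of the control level. CXCL3 (74036589 to 74038807) fell from 19.5, 18.8 and 18.2 CPM to 9.79, 10.2 and 9.11 CPM. At a log2 fold change of -0.96 (SE 0.056, edgeR adjusted p = 6.25e-11) it lay just inside the fold change minimum of 2, and it passed that minimum when only library sizes were used for scaling (-1.01). CXCL8 (73740506 to 73743716) was present at 118, 130 and 127 CPM in the control libraries and at 83.6, 85.6 and 96.9 CPM in the shPBRM1 libraries. The decrease to 71.0% of the control level was larger than the spread between replicates, with a log2 fold change of -0.49 (SE 0.077, edgeR adjusted p = 1.93e-09).

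CXCL1, CXCL2 and CXCL3 are close paralogs, and part of their reads cannot be assigned to a single gene. Of all stretches of 50 bases in the annotated transcripts, 4.81% of those of CXCL1, 12.5% of those of CXCL2 and 6.01% of those of CXCL3 also occur in another of the CXC genes compared. Summed over the 3 genes, the level was 281 ± 6.73 CPM in control and 313 ± 4.32 CPM in shPBRM1 cells (SD, n = 3), a log2 fold change of 0.16 (edgeR adjusted p = 1.05e-03) that follows CXCL1, the most abundant. Within each library, the log2 ratio of CXCL1 to CXCL3, per kilobase of exon, was 4.31, 4.29 and 4.36 in control and 5.54, 5.46 and 5.68 in shPBRM1 cells. The balance between these paralogs therefore shifted toward CXCL1 in every shPBRM1 library.

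CCL2, on chromosome 17 from 34255218 to 34257203, was the NF-kB-type gene that was called lower. It fell from 8.46, 8.22 and 7.85 CPM to 1.43, 1.21 and 1.54 CPM, with no overlap between the groups. The mean was 5.88-fold lower, and the log2 fold change of -2.53 had an SE of 0.11 and an edgeR adjusted p of 2.22e-14. The log2 ratio of CCL5 to CCL2 per kilobase was 1.43, 1.55 and 1.58 in control and -0.23, -0.21 and -0.27 in shPBRM1 libraries, so that CCL5 exceeded CCL2 in control cells and not after silencing.

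The transmembrane chemokines both fell. CXCL16, on chromosome 17 from 4733526 to 4739922 (minus strand), was present at 13.8, 13.3 and 14.8 CPM in control and at 3.70, 4.16 and 3.50 CPM in shPBRM1 libraries. The log2 fold change was -1.89 (SE 0.086, edgeR adjusted p = 2.50e-14). MED11, which overlaps the end of CXCL16 on the opposite strand, went the other way with a log2 fold change of 0.31. CX3CL1, on chromosome 16 from 57372458 to 57385048, fell from 2.46, 2.14 and 2.10 CPM to 0.200, 0.360 and 0.220 CPM, on 12, 14 and 14 counts. Its log2 fold change was -3.15 (SE 0.24, edgeR adjusted p = 4.30e-10), with 11.6% of the control mean remaining.

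**Figure D2:**
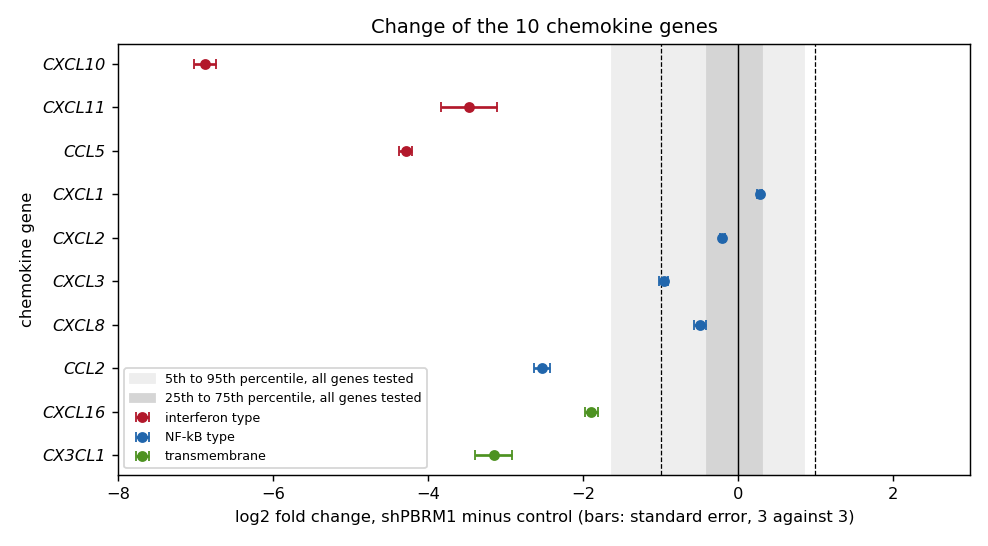
Log2 fold change of each chemokine gene, shPBRM1 minus control, with its standard error (3 against 3 libraries), over the range of all 15450 genes tested (light gray, 5th to 95th percentile; dark gray, 25th to 75th) and the fold change minimum of 2 (dashed lines). CXCL10, CXCL11, CCL5, CCL2, CXCL16 and CX3CL1 lie below the 5th percentile of all genes at -1.62, and CXCL1, CXCL2, CXCL3 and CXCL8 lie within the range; the CXCL11 value rests on 4 counts in the shPBRM1 group.

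Levels were compared between genes per kilobase of exon, because the genes differ in length. In control cells the order was CXCL1 at 170 ± 4.12 CPM per kilobase, CXCL8 at 54.9 ± 2.53, CXCL2 at 28.0 ± 0.742, CCL5 at 11.8 ± 0.323, CXCL3 at 8.49 ± 0.302, CXCL10 at 5.18 ± 0.107, CXCL16 at 4.99 ± 0.276, CCL2 at 4.12 ± 0.156, CX3CL1 at 0.373 ± 0.0334 and CXCL11 at 0.157 ± 0.00803 (SD, n = 3). Of the neighbors in this order, CXCL10 and CXCL16 alone overlapped between libraries. In shPBRM1 cells the first 3 places were unchanged, with CXCL1 at 206 ± 4.305, CXCL8 at 39.0 ± 3.17 and CXCL2 at 24.4 ± 0.557 CPM per kilobase. CXCL3 followed at 4.37 ± 0.247, CXCL16 at 1.35 ± 0.122, CCL2 at 0.701 ± 0.0848, CCL5 at 0.595 ± 0.0611, CX3CL1 at 0.0434 ± 0.0146, CXCL10 at 0.0418 ± 0.0126 and CXCL11 at 0.0145 ± 0.0136. CCL5 moved from rank 4 to rank 7 and CXCL10 from rank 6 to rank 9. The pairs CCL2 and CCL5, and CX3CL1 and CXCL10, overlapped between shPBRM1 libraries. The log2 ratio of CXCL10 to CXCL8, an interferon-type beside an NF-kB-type gene, was -3.31, -3.45 and -3.46 in control and -10.34, -9.75 and -9.64 in shPBRM1 libraries.

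The other chemokine ligands were examined as a list of 38 genes, of which 36 were in the table, 21 had no count in any library and 3 passed the filter on low counts. CXCL5, a neutrophil attractant of the CXCR2 group, rose. Its level was 184, 182 and 178 CPM in control and 382, 425 and 436 CPM in shPBRM1 libraries, a log2 fold change of 1.19 (SE 0.061, edgeR adjusted p = 2.04e-16). The CXCL5 promoter also holds the kappa-B letters, 90 bases upstream. CCL20, a CCR6 ligand and NF-kB target, fell from 1.37, 1.44 and 1.45 CPM to 0.450, 0.488 and 0.612 CPM, a log2 fold change of -1.44 (SE 0.13, edgeR adjusted p = 2.29e-05). The third, CXCL6, named after its values were seen, was at 0.994 ± 0.116 and 1.05 ± 0.264 CPM and did not pass the test (edgeR adjusted p = 0.810).

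Summed over the 46 ligand genes with a row and an annotated length, chemokine transcripts were at 361 ± 3.19 CPM per kilobase in control and 440.5 ± 16.5 in shPBRM1 cells (SD, n = 3), so that the sum rose while 6 of the 10 genes fell more than 2-fold. CXCL1, CXCL2, CXCL3, CXCL5, CXCL6 and CXCL8, the neutrophil attractants of the list, made up 92.2% ± 0.135 of the sum in control and 99.3% ± 0.00569 in shPBRM1 cells. The share of CXCL5 went from 19.8% ± 0.240 to 37.1% ± 1.36 and that of CXCL8 from 15.2% ± 0.826 to 8.85% ± 0.423. CXCL1 held 47.0% ± 0.780 and 46.7% ± 1.34. The interferon-type genes went from 4.75% ± 0.117 to 0.148% ± 0.0109. These are shares of measured transcripts, and the level of secreted protein was not measured in this series.

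**Figure D3:**
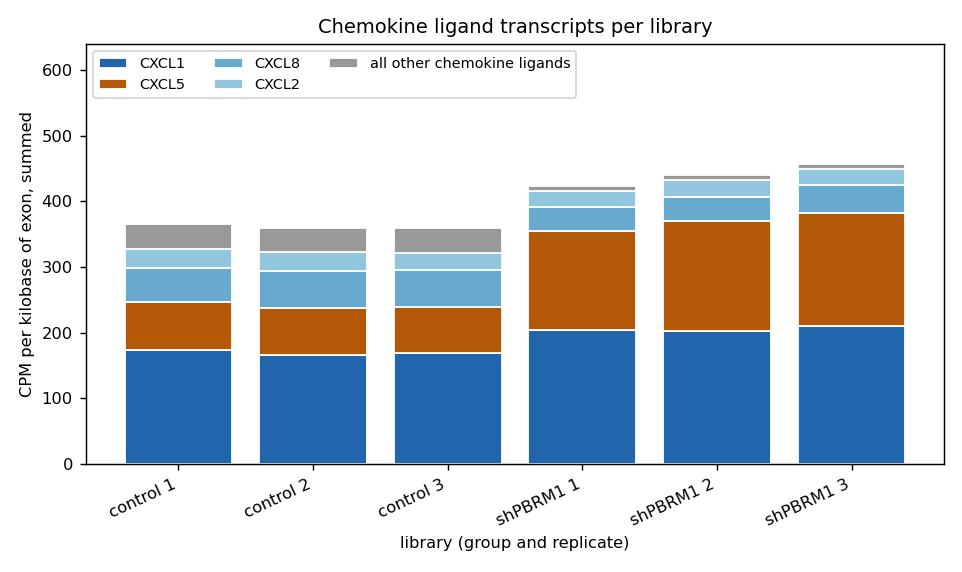
Chemokine ligand transcripts in each of the 6 libraries, in CPM per kilobase of exon, stacked by gene from 0. The bars of the 3 shPBRM1 libraries reach 424 to 457, above the 359 to 365 of the control libraries, with a larger CXCL5 segment and a thinner segment for all other ligands.

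The position of the genes was examined because the CXC genes lie in clusters on chromosome 4. From CXCL8 to CXCL2, over chr4:73740506-74099293, 6 chemokine genes were tested, and in chromosomal order CXCL8 fell (log2 fold change -0.49), CXCL6 was at 0.075 and did not pass the test, CXCL1 rose (0.28), CXCL5 rose (1.19), CXCL3 fell (-0.96) and CXCL2 fell (-0.20). The cluster thus held genes that rose and genes that fell, with neighbors in the same direction (CXCL1 and CXCL5, CXCL3 and CXCL2) and in opposite directions (CXCL5 and CXCL3). EREG and AREG, genes of EGF receptor ligands within 500 kb of the cluster, were called lower with log2 fold changes of -3.002 and -2.91, and MTHFD2L, between them and CXCL2, was at 0.093 and did not pass the test. All flanking genes named here were chosen after their values were seen. Of all 15450 genes tested, 9.68% were called lower and 2.87% higher, and no region was tested against these shares. Around CXCL10 and CXCL11, 9 other genes within 500 kb were tested and 1 of them, NAAA, was called lower (log2 fold change -1.24). The median of the 9 was -0.43. SDAD1 and NUP54, tested genes to either side of the pair, had log2 fold changes of -0.44 and -0.019. Beside CXCL16, ZMYND15 starts 93 bases away on the opposite strand and fell from 32, 73 and 68 counts to 4, 3 and 14 counts, with a log2 fold change of -3.26 (edgeR adjusted p = 2.00e-07). It was called together with 2 further genes among 26 others tested within 500 kb of CXCL16. Within 500 kb of CCL5, 3 of 8 other genes tested were called lower, namely SLFN11 (-1.37), SLFN13 (-1.46) and MMP28, which went from 0.348 CPM to 0 counts in all shPBRM1 libraries. Within 500 kb of CX3CL1, 3 of 17 were called lower, namely HERPUD1 (-1.05), NLRC5 (-3.76, from 27.1 to 1.99 CPM) and CETP (from 0.570 to 0.0171 CPM), and ADGRG1 was called higher (1.46). The single other gene tested within 500 kb of CCL2 was not called.

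**Figure D4:**
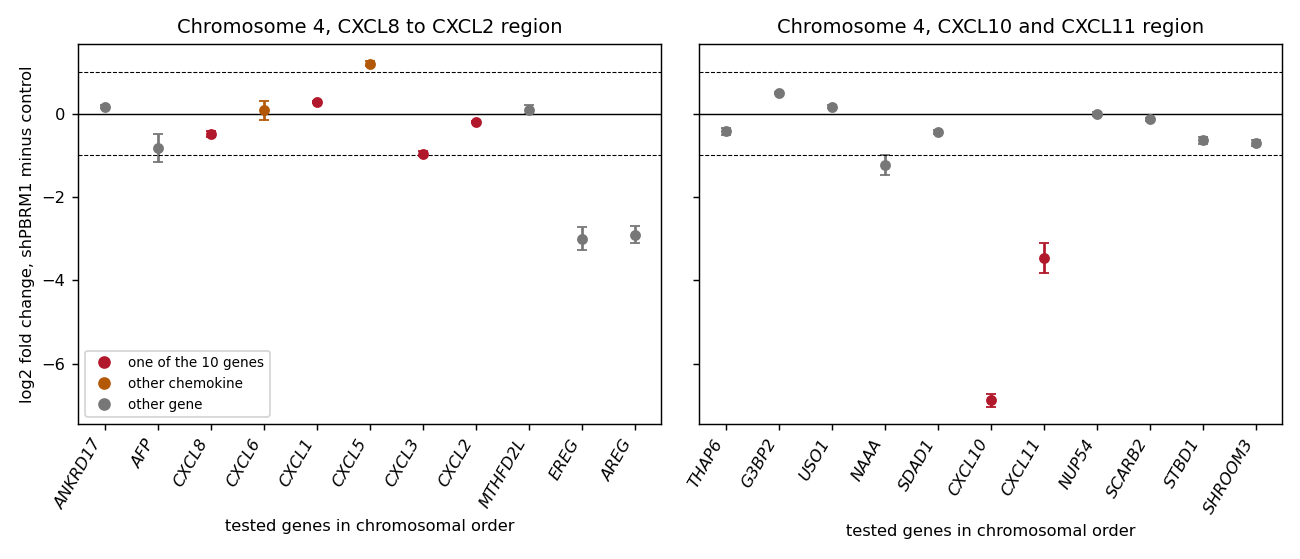
Log2 fold change with standard error for every tested gene within 500 kb of the CXCL8 to CXCL2 cluster (left) and of CXCL10 and CXCL11 (right), in chromosomal order along chromosome 4; red points belong to the 10 genes, orange points are other chemokines and gray points other genes. The left cluster holds values on both sides of 0, from -0.96 for CXCL3 to 1.19 for CXCL5, and on the right CXCL10 and CXCL11 stand below their neighbors.

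Receptors for these ligands were scarce. Of 23 chemokine receptor genes, 7 had no count in any library and 6 were tested. CXCR1 and CXCR2 had 0 counts in all 6 libraries, CXCR3 had no more than 8 counts and CCR2 no more than 2. CXCR6, the receptor of CXCL16, was low in both groups, at 0.663 ± 0.473 and 0.586 ± 0.143 CPM (SD, n = 3), and did not pass the test (edgeR adjusted p = 0.844). CX3CR1 had 4, 14 and 32 counts in control libraries and 0 in each shPBRM1 library, at least 5.91-fold lower with 3 counts per library as the floor, and was not tested after the filter. CCR1, a receptor of CCL5, had 102, 119 and 127 counts in control libraries and 0 counts in each shPBRM1 library. It was at least 44.2-fold lower, with an edgeR adjusted p of 1.10e-12. ACKR3, a scavenging receptor of CXCL11 and CXCL12 named after its values were seen, was the most abundant receptor gene by CPM and fell from 13.2 ± 0.765 to 8.48 ± 0.264 CPM (log2 fold change -0.64, edgeR adjusted p = 2.51e-07). CXCR4, at 8, 14 and 12 counts against 0, 4 and 10, was called lower by edgeR (adjusted p = 0.0474). The call was lost in DESeq2 (adjusted p = 0.151) and when any library other than shPBRM1 replicate 3 was left out (edgeR adjusted p between 0.0648 and 0.225). Its log2 fold change of -1.50 was -0.87 without shPBRM1 replicate 1 and -2.50 without shPBRM1 replicate 3.

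Of 9 genes of proteases that cut chemokines, 7 were tested, with 3 called lower and 1 called higher. The same calls were made for 9.68% and 2.87% of all genes tested, and the list was not tested against these shares. ADAM10 and ADAM17, the enzymes known to shed CX3CL1 and CXCL16 from the membrane, rose while both substrates fell. ADAM10 went from 157, 161 and 165 CPM to 263, 250 and 255 CPM (log2 fold change 0.67, SE 0.029, edgeR adjusted p = 1.71e-13). ADAM17 went from 103 ± 2.32 to 128 ± 2.51 CPM (log2 fold change 0.32, edgeR adjusted p = 1.57e-08). The collagenase MMP1 fell from 38.4 ± 1.15 to 2.34 ± 0.258 CPM (log2 fold change -4.06), MMP2, which can cleave CCL7 and CXCL12, reached -2.34, and the lysosomal cathepsin gene CTSS had -2.08. MMP9, which can truncate CXCL8, was higher, with a log2 fold change of 1.61 (SE 0.54, edgeR adjusted p = 1.21e-04) on 34, 11 and 22 against 84, 56 and 111 counts. Without control replicate 1 it was 2.19, and CTSS was -2.68 without shPBRM1 replicate 1. DPP4, which trims CXCL10, had no more than 16 counts in any library and was not tested.

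Genes of the interferon and NF-kB pathways, after which the interferon-type and NF-kB-type chemokines are named, were examined as lists. Whether these pathways drive the chemokine changes seen here was not tested. Among 15 interferon signaling genes, 14 were tested, 6 were called lower and 0 were called higher in edgeR, with 9 lower and 3 higher without the fold change minimum. Called lower among all genes were 9.68%, and the median log2 fold change of the 14 was -0.42, since the other genes of the list changed less than 2-fold or did not pass the test. STAT2 fell from 130.2 ± 4.44 to 25.4 ± 1.11 CPM (log2 fold change -2.36), and IRF7 had a log2 fold change of -3.19. IRF1, which binds the ISRE, had a log2 fold change of -1.60 (SE 0.039, edgeR adjusted p = 2.84e-20). IFNB1, the gene of interferon beta, had 26, 54 and 54 counts in control and 2, 4 and 0 in shPBRM1 libraries. The ratio was 26.6-fold, with a 95% counting interval of 11.9 to 73.9, or 8.73 to 132 with counts divided by 2. The fitted IFNB1 log2 fold change of -4.60 was -5.70 without shPBRM1 replicate 2 and -3.92 without shPBRM1 replicate 3. IFNG had no count in any library.

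Of the 13 NF-kB subunit and inhibitor genes, 1 was called lower, NFKBIZ, and none higher in edgeR, beside 9.68% and 2.87% of all genes. Without the fold change minimum, 10 were lower and 1 was higher, and the median log2 fold change was -0.37, close to that of the interferon list. The difference between the lists was not tested. RELA was at 131 ± 2.96 and 101 ± 5.40 CPM (log2 fold change -0.38, edgeR adjusted p = 6.21e-09), and NFKB1 had a log2 fold change of -0.18. NFKBIZ, an atypical inhibitor that is also a coactivator at some NF-kB targets, fell from 118, 114 and 110 CPM to 53.2, 50.03 and 52.3 CPM. Of 22 other NF-kB target genes, 14 were tested, 5 were called lower and 2 were called higher, with a median of -0.69. The largest decreases were those of IL6, from 144 ± 2.06 to 9.19 ± 0.302 CPM (log2 fold change -3.97, edgeR adjusted p = 3.63e-27), PTGS2 (-3.39), VCAM1 (-1.62) and TNFAIP2 (-1.23). The PTGS2 value (SE 0.57) rests on 26, 66 and 52 against 2, 2 and 12 counts, and was -4.59 without shPBRM1 replicate 3. CD83 rose by a log2 fold change of 1.95 and MMP9, counted in this list as well, by 1.61. The NF-kB targets thus held genes that moved in either direction, as the NF-kB-type chemokines did.

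**Figure D5:**
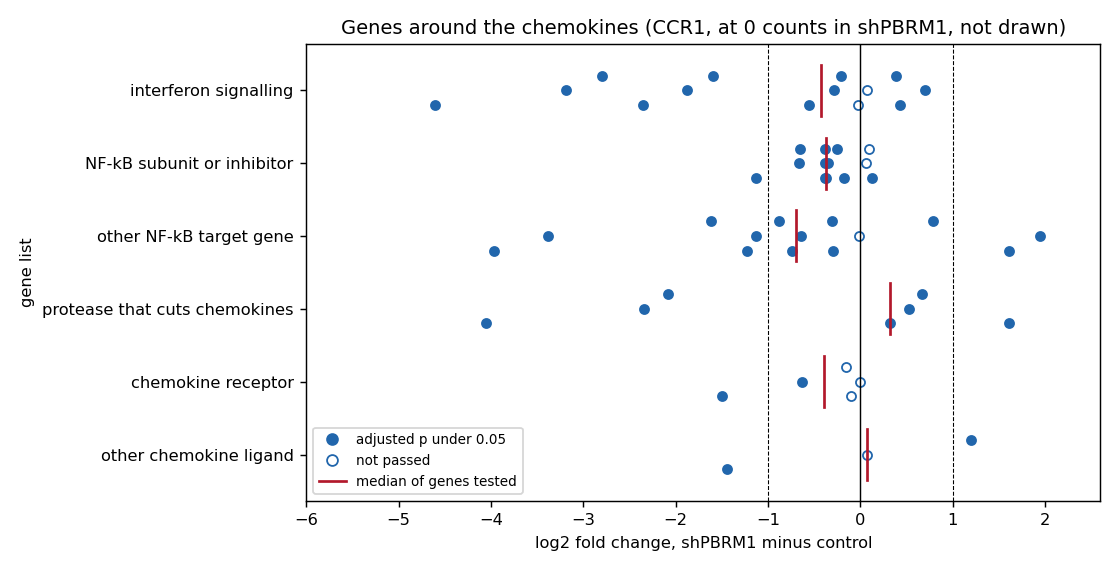
Log2 fold change, shPBRM1 minus control, of the tested genes of 6 lists (rows, CCR1 not drawn because it had 0 counts in shPBRM1 cells, but kept in the median); filled points passed an adjusted p under 0.05 in edgeR, open points did not, red bars are the medians of the genes tested and dashed lines mark a fold change of 2. The interferon signaling genes reach -4.60 for IFNB1, and the NF-kB subunit and inhibitor genes lie between -1.13 and 0.12.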

How the data were processed

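RNA-seq counts of 6 libraries of BT-549 cells were analyzed. The authors deposited raw read counts per gene symbol, without normalization. The submitters' processing notes name CASAVA 1.8.2, STAR 2.7.9a, featureCounts, DESeq2 1.24.0 and the build GRCh38.p7, and the libraries were made with a stranded poly(A) kit. The annotation and the strand setting of the counting are not given in the sources used here. The titles gave each library its group and replicate number.

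The whole table of 37887 rows was fitted with edgeR 4.0.16 in R 4.3.3, using TMM factors, filterByExpr (15450 genes kept) and quasi-likelihood tests whose p-values were adjusted by the Benjamini-Hochberg method over all genes kept. Each standard error was computed from replicate log2 CPM values (prior count 2), apart from the fit. It is therefore not the error of the fitted log2 fold change, and the prior count narrows it for genes near 0 counts. Positions and exon lengths are those of GENCODE v29 (GRCh38), matched by symbol. Total counts per library of at least 36429395 set the precision. Libraries of 1 group differed by more than sampling noise (chi-square per degree of freedom 4.66 to 22.6). Deviations of same-numbered libraries 1, 2 and 3 had correlations of 0.734, 0.593 and 0.419 over 5621 genes, which are not independent. Differently numbered pairs lay between -0.671 and 0.465, so the value of pair 3 was within their range. The replicate number, taken from the titles, was also fitted as a block.

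The members and lists were chosen with earlier results of these data known. The text names all 10 genes, PBRM1, and the ligands, receptors, proteases and factors linked to them. From each list it names up to 4 called genes per direction with the largest change. Some genes of these lists are not reported here. Alternatives were DESeq2 1.42.0, RLE factors, library size only, other filters, the block, each library left out, glmTreat, other thresholds, summed paralogs and another gene length. On simulated counts with 200 genes changed 4-fold, edgeR recovered 197 with 1 false call among 15384 genes tested, and DESeq2 recovered 193. The simulation gave every gene the same dispersion and held no replicate structure. It checks the code, and its figures are not error rates for the real libraries.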

Additional observations from a re-analysis of the deposited data

How the results depend on the processing

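The 6 chemokine decreases past a fold change of 2 were called under every alternative run in which the gene could be tested. CXCL11 was not tested with a mean of at least 50 counts, which left 5. With library sizes only, CXCL3 was called as well, which made 7. When single libraries were left out in turn, the log2 fold change of CXCL10 lay between -7.14 and -6.63, that of CXCL11 between -4.02 and -2.85 and that of CCL5 between -4.35 and -4.22. CXCL1 stayed higher, between 0.26 and 0.30, and no fit without a library changed the call of any of the 10 genes.

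The replicate block changed no call of these 10 genes and left 6 called lower. With it, the log2 fold change of CXCL10 was -6.88, of CXCL8 -0.49 and of CXCL1 0.28.

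Tested with glmTreat against a fold change of 2, CXCL1 (0.28), CXCL2 (-0.20), CXCL3 (-0.96) and CXCL8 (-0.49) did not pass, each with an adjusted p of 1, since that test asks for a change larger than 2-fold. Without the fold change minimum, 1 chemokine gene, CXCL1, was called higher. Over all genes, the counts called lower and higher were 1496 and 443. They were 941 and 270 with a mean of at least 50 counts, where fewer genes were tested, 913 and 175 with glmTreat, and 5137 and 4863 without the minimum. For the summed CXCL1, CXCL2 and CXCL3 counts the log2 fold change was 0.16, opposite in sign to CXCL2 and CXCL3 alone, since CXCL1 holds most of the counts. CXCR6 and CXCL6, which did not pass the test, changed sign without single libraries, with CXCR6 between -0.43 and 0.60 (positive without control replicate 1 or shPBRM1 replicate 2) and CXCL6 between -0.062 and 0.27 (negative without shPBRM1 replicate 2).

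With the longest transcript in place of all exons as the length, control levels in CPM per kilobase were 201 for CXCL1, 73.3 for CXCL8, 34.5 for CXCL2, 13.1 for CCL5, 11.5 for CXCL3, 8.21 for CCL2, 6.28 for CXCL16 and 0.187 for CXCL11. In shPBRM1 cells they were 243 for CXCL1, 52.0 for CXCL8, 30.0 for CXCL2, 5.91 for CXCL3, 1.70 for CXCL16, 1.40 for CCL2 and 0.660 for CCL5. CCL2 then stood above CXCL10 and CXCL16 in control cells. Depth limits CXCL11 and CXCL10 most, whose shPBRM1 libraries held at most 4 counts each. Single libraries moved the values of CXCL11, CXCR4, CTSS, MMP9, IFNB1 and PTGS2 by more than 1.5 times, as given beside them, with the direction kept.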

Other observations

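IER3, an NF-kB target on the list of other target genes, had 155 counts in shPBRM1 replicate 2 and no more than 2 counts in each of the other 5 libraries, and it was not tested after the filter. IL1B, which is also NF-kB driven and was not among the called genes, was at 22, 23 and 29 counts in control and 51, 41 and 60 counts in shPBRM1 libraries, a log2 fold change of 0.79 (edgeR adjusted p = 0.0155). The interferon receptor genes IFNAR1, IFNAR2 and IFNGR2 were higher in shPBRM1 cells, by log2 fold changes of 0.43, 0.69 and 0.38, while the interferon-type chemokines were lower. IFNGR1, the remaining receptor gene of the list, did not pass the test (log2 fold change -0.025, edgeR adjusted p = 0.532). The kinase genes JAK1 (-0.29), JAK2 (-0.55) and TYK2 (-0.21) of the same list were lower, each less than 2-fold. These genes were named after their values were seen.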
